A study of Mus musculus with 4 samples.

Results

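The pigment epithelium and melanin genes described here are 10 genes of the deposited count table of 48897 genes, chosen by name for their roles in the visual cycle and in pigment formation of the epithelium that adheres to the neural retina: Rpe65, Lrat, Rdh5, Best1, Ttr, Tyr, Tyrp1, Dct, Pmel and Mitf. All 10 were found, and all 10 passed the filter on low counts. The 4 libraries were made from retinas of wild-type C57BL/6 mice (C57BL/6J in the study's methods) taken on postnatal day 9. On postnatal day 3 the left eyes had received 0.6 nmol of an antagomir against miR-124-3p (an antisense oligonucleotide that blocks the mature microRNA) in a volume of 1 μl into the vitreous, and a scrambled oligonucleotide was given to the right eyes in the same way. The anti-miR-124 group and the negative control (NC) group have 2 libraries each, all from mixed retinas, with more than 1 litter in each group. Each left-eye library shares a number with 1 right-eye library, here pair A (NC-A and anti-A) and pair B (NC-B and anti-B). Treatment and eye side cannot be told apart, since every anti-miR-124 library is a left eye. The study's methods describe left and right eyes of the same mice, pooled. They name a single biological replicate where the tissue is described, but 2 biological replicates where the expression difference is defined. The labels list 2 samples a group. Which mice went into which library is not stated, so the p-values measure only the spread between these 4 samples, which may be technical.

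The retinal pigment epithelium is a single layer of pigmented cells behind the photoreceptors. It takes up all-trans-retinol released after light absorption, converts it to 11-cis-retinal and returns it to the photoreceptors, and it holds melanosomes, the organelles in which melanin is made from tyrosine. MITF, a basic helix-loop-helix leucine zipper factor, is known to drive the melanin enzymes in pigment cells by binding a hexamer called the M-box core in their promoters. The epithelium is not part of the neural retina, and a retina freed from the eye cup carries a variable amount of it.

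The M-box core in promoters of the tyrosinase family, the enzymes of melanin synthesis, is shown because their levels are followed together below. Promoters (250 bases before to 50 bases after an annotated start, RefSeq, GRCm38.p6) were present for 8 of the 10 genes. The M-box core CATGTG, searched on both strands, was found in those of Rpe65, Tyr, Tyrp1 and Dct, 4 of the 8 genes, against 14.2% of 32851 promoters of all genes. The palindromic E-box CACGTG was found in 0 of the 8 genes, against 7.15% of all promoters. Both percentages are shares of promoters, of which a gene can have several (Mitf has 3), while the 8 are genes. No share of genes was computed for the whole set of 27025 genes. The windows below run 5′ to 3′ on the strand of the gene, with the hexamer in capitals and 12 bases on each side, and positions are counted back from the base before the start (-1).
Tyr, chr7:87493516-87493545, minus strand, hexamer at -21 to -16 from the start: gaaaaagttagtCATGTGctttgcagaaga
Tyrp1, chr4:80834155-80834184, plus strand, hexamer at -46 to -41: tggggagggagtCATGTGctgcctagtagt
Dct, chr14:118052379-118052408, minus strand, hexamer at -150 to -145: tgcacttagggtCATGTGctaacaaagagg
The 3 windows share the 10 letters gtCATGTGct around the hexamer. These letters, taken from the windows after they were seen, occur on either strand in 0.186% of all promoters, those of 42 genes. Rpe65, the retinoid isomerase, holds the hexamer on the opposite strand, at -239 to -234, with other letters around it. Dct holds a second copy on the opposite strand, at -232 to -227. A match describes the letters and is not a binding site shown in these retinas.

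The libraries held 16317239 to 18726963 counts. Rod photoreceptor genes summed to between 11820 and 13762 TPM (counts divided by gene length and scaled to the same total in every library). The 10 pigment epithelium and melanin genes together had 944 to 1773 counts, 0.00579% to 0.0103% of a library, and single values rest on 8 to 435 counts. NC-A stood apart because 24 lens genes took 6.54% of its TPM, against 0.0134% to 0.0188% in the other libraries. Anti-B stood apart by its microglia genes, whose summed level was 820 TPM against 263 to 322 TPM elsewhere. Sox10, the defining factor of neural crest melanocytes, stayed between 0.26 and 0.47 TPM with 4 to 7 counts. Other listed melanocyte markers were mostly higher, with Kit at 22.8 to 27.0 TPM, Ednrb at 9.13 to 14.8 and Mc1r at 4.18 to 5.48. Erbb3 was at 0.429 to 0.797 TPM. Which cells these transcripts came from was not tested.

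Every gene of the group had a higher fitted level in the anti-miR-124 group, but none passed the test, and 7 of the 10 followed 1 pair of libraries. In pair B, 4 of the 10 genes were below their control by TPM. All 10 were measured in the same 4 libraries and are not separate observations. The median log2 fold change of all genes tested was 0.0007, and their share above 0 was not computed. Rpe65, Rdh5, Best1, Ttr, Tyr, Dct and Pmel were all lowest by TPM in NC-A and all highest in anti-A. This order, noted from the values themselves, was found for 13.7% of the 17766 genes tested. The other 3 genes, Lrat, Tyrp1 and Mitf, were highest in anti-B, as were 36.8% of all genes tested. On CPM with TMM normalization (counts per library total, scaled so that most genes do not differ), 6 of the 10 kept the first order, all but Rdh5, against 8.25% of all genes, and the same 3 genes were again highest in anti-B, against 30.6%. In bulk tissue, fewer pigment epithelial cells and less RNA per cell cannot be told apart.

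**Figure D1:**
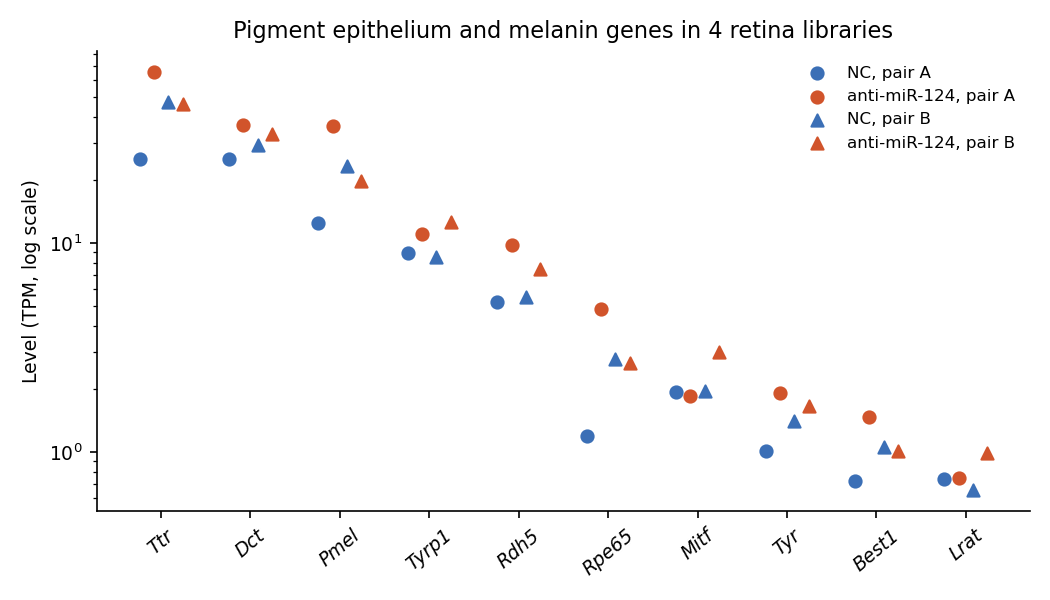
Level of each gene in the 4 libraries in TPM on a log scale, ordered by the mean, with NC in blue, anti-miR-124 in orange, circles for pair A and triangles for pair B. Ttr lies highest, with a mean of 46.2 TPM, and Lrat lowest, with 0.783 TPM, and the blue circle of pair A is the lowest point for 7 of the 10 genes.

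Per length, Ttr was the most abundant of the group at a mean of 46.2 TPM over the 4 libraries. It was followed by Dct at 31.1, Pmel at 22.9, Tyrp1 at 10.3 and Rdh5 at 7.02 TPM. Rpe65 (2.87 TPM), Mitf (2.19), Tyr (1.49), Best1 (1.07) and Lrat (0.783) were scarce. In this order each gene's range over the libraries overlapped that of its neighbour, except between Rdh5, whose lowest value was 5.23 TPM, and Rpe65, whose highest was 4.83 TPM.

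Rpe65, the isomerase that turns retinyl ester into 11-cis-retinol and the defining enzyme of the pigment epithelium (chromosome 3, 159599075 to 159625307, GRCm38 as for all genes), had 22 counts in NC-A, 88 in anti-A and 53 in both NC-B and anti-B. In TPM these were 1.19, 4.83, 2.80 and 2.67. The anti-miR-124 to NC ratio was thus 4.07 in pair A (95% interval 2.53 to 6.82) and 0.956 in pair B (0.641 to 1.43). These intervals, exact Clopper-Pearson intervals of the share of 2 counts, cover counting error only, here and for every ratio. The NC libraries also differed from each other, the value of pair B being 2.35 times that of pair A (1.41 to 4.06). The 2 groups overlapped, with both pair B libraries lying between those of pair A. Over all 4 libraries the log2 fold change was 0.87 (standard error 0.46, edgeR adjusted p = 0.989).

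Lrat, the acyltransferase that makes the retinyl ester on which Rpe65 acts (chromosome 3, 82892582 to 82903974), had 21 counts in each library of pair A and 19 and 30 in NC-B and anti-B. Its levels of 0.740, 0.752, 0.654 and 0.987 TPM did not overlap between the groups by TPM, but they did by CPM, where pair A had a log2 ratio of -0.08. Neither pair had a counting interval that left out a ratio of 1. The log2 fold change was 0.27 (standard error 0.36). Lrat and Rpe65 act one after the other, and the ratio of Lrat to Rpe65 TPM was 0.623 in NC-A and 0.156 in anti-A. In pair B this ratio was 0.234 in NC-B and 0.369 in anti-B. These ratios carry no counting interval and rest on 19 to 30 counts of Lrat and 22 to 88 of Rpe65. In pair B the counting intervals of both genes included 1, so an opposite direction is not shown.

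Rdh5, the 11-cis-retinol dehydrogenase of the last step of the cycle in the pigment epithelium (chromosome 10, 128913588 to 128919297), had 37 and 68 counts in NC-A and anti-A and 40 and 57 in NC-B and anti-B. Both anti-miR-124 libraries, at 9.78 and 7.53 TPM, lay above both NC libraries, at 5.23 and 5.53 TPM. The ratio was 1.87 in pair A (1.23 to 2.87) and 1.36 in pair B (0.893 to 2.09). Its log2 fold change of 0.63 (standard error 0.28) also had an adjusted p of 0.989 by edgeR. The gene overlaps Bloc1s1 on the same strand, a gene with 278 to 351 counts, so some reads could belong to either.

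Best1, a calcium-activated chloride channel of the basal membrane (chromosome 19, 9985172 to 10001633), had 8 and 16 counts in NC-A and anti-A and 12 in both NC-B and anti-B. The ratio was 2.03 in pair A (0.821 to 5.49) against 0.956 in pair B (0.393 to 2.33), so no difference was detectable at this depth. Ttr, on chromosome 18, encodes transthyretin, the carrier of thyroxine and of the retinol-binding protein complex. It had 163 and 420 counts in NC-A and anti-A and 313 and 322 in NC-B and anti-B, which are 25.2, 65.9, 47.2 and 46.4 TPM. As for Rpe65, the groups overlapped and the pair B values fell between those of pair A. The ratio was 2.62 in pair A (2.18 to 3.16) and 0.983 in pair B (0.839 to 1.15). Over the 4 libraries the log2 fold change was 0.59, with a standard error of 0.27. Within the NC group, the level in pair B was 1.88 times that in pair A (1.55 to 2.28).

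**Figure D2:**
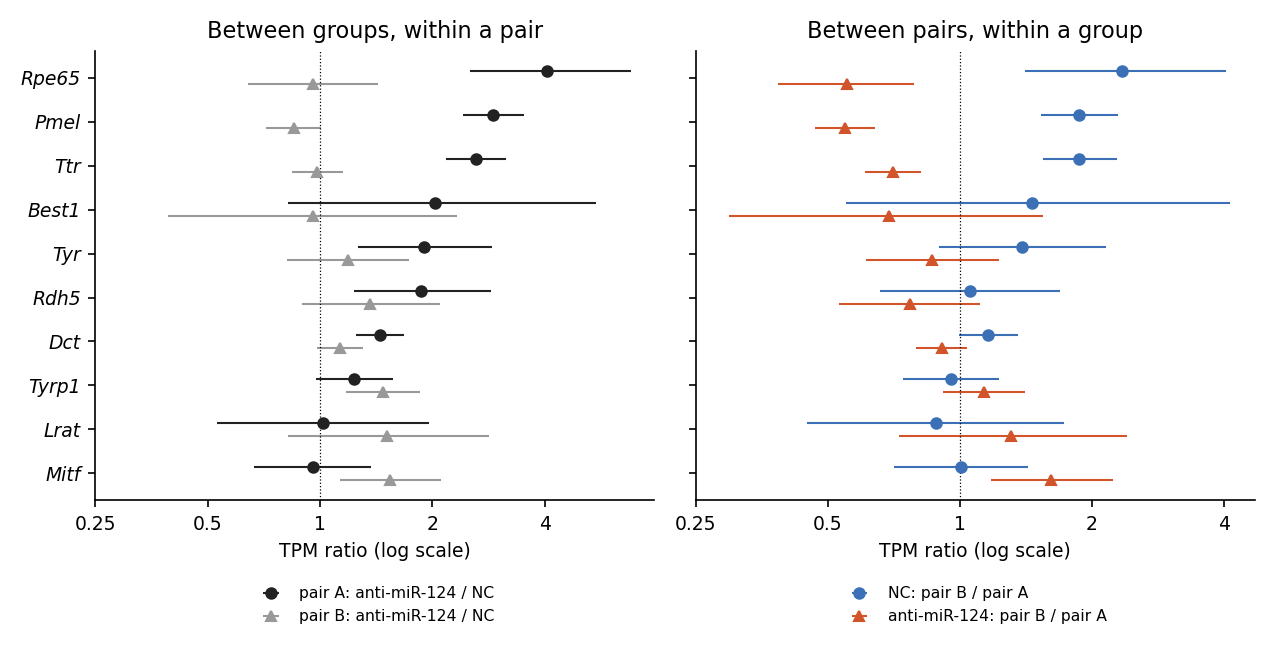
TPM ratios of the 10 genes on a log scale, with 95% counting intervals. On the left, circles are the anti-miR-124 to NC ratio of pair A and triangles that of pair B, and on the right circles are pair B over pair A in the NC group and triangles the same in the anti-miR-124 group. Rpe65, Pmel and Ttr lie far right of 1 in pair A and near 1 in pair B, and the same genes also lie away from 1 between the libraries of one group.

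The 3 enzymes of melanin synthesis were all higher in both pairs. So were 32.3% of all genes tested by TPM and 22.8% by TMM-normalized CPM. For all 3 enzymes, both anti-miR-124 libraries also lay above both NC libraries, against 20.8% and 16.5% of all genes. Tyr, tyrosinase, which catalyses the first and rate-limiting step (chromosome 7, 87424771 to 87493512), had 38 and 71 counts in NC-A and anti-A and 54 and 67 in NC-B and anti-B. At 1.91 and 1.66 TPM the anti-miR-124 libraries lay above the NC libraries at 1.01 and 1.40 TPM. The ratios were 1.90 (1.26 to 2.90) and 1.19 (0.816 to 1.73) in pair A and pair B. Tyrp1, which stabilises tyrosinase and acts later in eumelanin synthesis (chromosome 4, 80834208 to 80851736), had 131 and 159 counts in pair A and 128 and 197 in pair B. Its groups did not overlap either, with 8.94 and 8.54 TPM in the NC and 11.0 and 12.6 TPM in the anti-miR-124 libraries. Here the larger ratio was that of pair B, at 1.47 (1.17 to 1.85), against 1.23 (0.973 to 1.57) in pair A.

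Dct, dopachrome tautomerase, which rearranges an intermediate between these steps (chromosome 14, 118012790 to 118052246), varied least of the 10 genes over the libraries, with an SD of log2 CPM of 0.19, and had 306 and 435 counts in pair A and 364 and 431 in pair B. The NC libraries were at 25.3 and 29.4 TPM and the anti-miR-124 libraries at 36.5 and 33.2 TPM, without overlap. The ratio was 1.45 in pair A (1.25 to 1.68) and 1.13 in pair B (0.982 to 1.30). The log2 fold changes of Tyr, Tyrp1 and Dct were 0.52, 0.38 and 0.30, with standard errors of 0.27, 0.17 and 0.10. Dct had the smallest unadjusted p of the group, 0.0221, and an adjusted p of 0.989 by edgeR. The shared letters shown above were taken from the promoters of these 3 enzymes, so all 3 carry them by construction. The promoter of the microglia gene C1qb carries them as well. Tyr and Dct were highest in anti-A and Tyrp1 in anti-B, but for none of the 3 did the ratio of anti-B to anti-A have an interval that left out 1.

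Pmel forms the amyloid fibrils on which melanin is laid down inside the melanosome (chromosome 10, 128705144 to 128720238). It had 151 and 432 counts in NC-A and anti-A and 290 and 258 in NC-B and anti-B. These are 12.4, 36.1, 23.3 and 19.8 TPM, so that the groups overlapped. The ratio was 2.91 in pair A (2.41 to 3.52) and 0.850 in pair B (0.716 to 1.01), with a log2 fold change of 0.61 (standard error 0.34). Pmel overlaps Dgka on the other strand, which had 71 to 101 counts. By TPM, Pmel followed Rpe65 and Ttr more closely than the melanin enzymes did. The ratio of Pmel to Rpe65 TPM stayed between 7.41 and 10.5 over the 4 libraries, a 1.41-fold range, and that of Ttr to Rpe65 between 13.6 and 21.2, a 1.55-fold range. The same ratio moved 2.14-fold for Tyr, 2.81-fold for Dct, 3.30-fold for Tyrp1 and 4.25-fold for Mitf. Such wider ranges were not limited to the melanin genes. The ratio moved 2.23-fold for Rdh5. For Lrat it moved more than for Tyrp1, and for Best1 less than for Tyr but more than for Ttr. These ranges carry no counting interval, and Rpe65 had only 22 counts in NC-A.

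Mitf, the regulator (chromosome 6, 97807002 to 98021360), had 67 and 63 counts in NC-A and anti-A and 69 and 111 in NC-B and anti-B. Its levels were 1.94, 1.86, 1.95 and 3.00 TPM, 3 of them nearly equal and 1 higher. The ratio was 0.956 in pair A (0.667 to 1.37) and 1.54 in pair B (1.13 to 2.11). The log2 fold change was 0.27 (standard error 0.29) and became -0.11 without anti-B. Mitf is not limited to pigment cells and is also expressed by macrophages and other cells. In the library where Mitf was highest, all 20 microglia genes were above their pair B control, with a median log2 TPM ratio of 1.66 (0.07 in pair A), and genes listed for choroid, sclera and stroma summed to 283 TPM against 159 to 180 TPM. Their part in the level of Mitf was not tested.

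**Figure D3:**
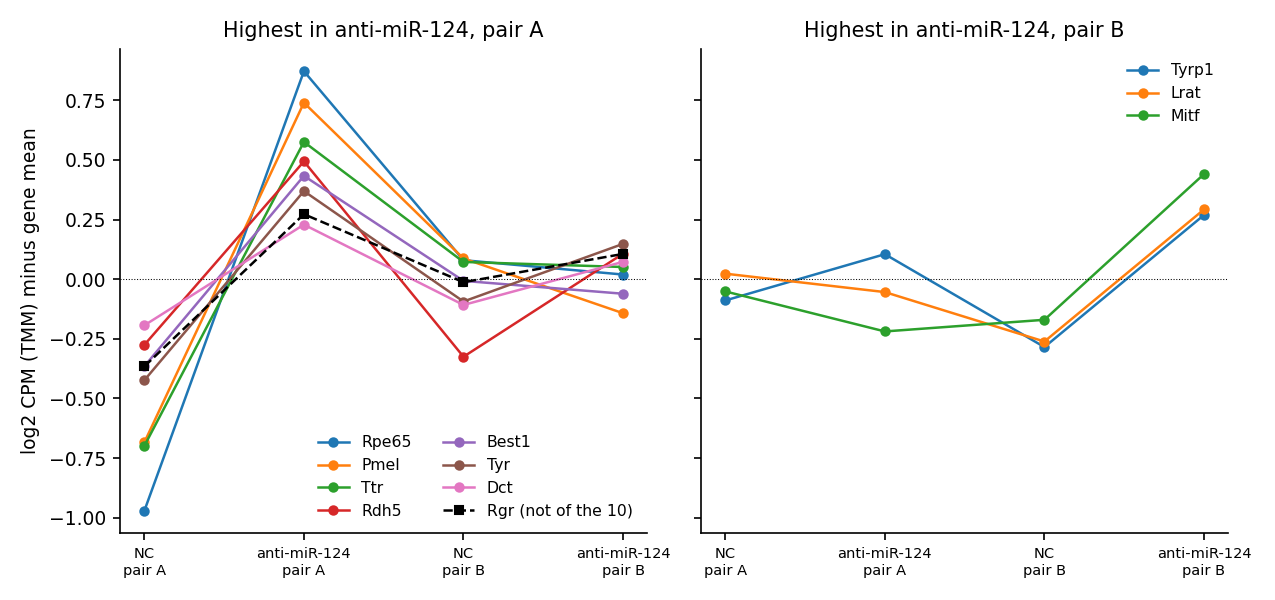
Level of each gene in the 4 libraries as log2 CPM after TMM normalization, minus the gene's own mean, with lines joining the values of 1 gene. The left panel holds the 7 genes highest in anti-A, with Rgr added as a dashed line, and the right panel the 3 genes highest in anti-B. Rpe65 spans the widest range, from -0.97 to 0.87.

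Taken over the group, 9 of 10 genes had a TPM ratio above 1 in pair A, with a median of 1.88, and 6 of 10 in pair B, with a median of 1.16. For 17101 genes with at least 12 counts on average, pair A had a median of 1.07 and pair B of 1.00, with 68.0% and 50.1% of them above 1. The counting interval lay wholly above 1 for 6 genes in pair A (Rpe65, Rdh5, Ttr, Tyr, Dct and Pmel), against 30.9% of the 17101 genes, and for 2 in pair B (Tyrp1 and Mitf), against 17.1%. For 0 of the 10 did it lie below 1 in either pair, against 6.41% (pair A) and 16.4% (pair B) of all genes. The count of 2 in pair B is near the share of all genes. By eye, the right-eye NC library of pair B was above that of pair A for 8 of 10 genes, with a median ratio of 1.28, and for 3 genes (Rpe65, Ttr and Pmel) the interval lay above 1. Of all genes 74.3% were above 1 in this comparison, with a median of 1.09, and the interval lay above 1 for 34.6%, so the counts of 8 and 3 are near those of all genes. Among left eyes, anti-B was below anti-A for 7 of 10 genes, with a median of 0.818, while 57.6% of all genes were above 1, with a median of 1.03. The interval lay below 1 for the same 3 genes, against 13.6% of all genes, and above 1 for Mitf, against 20.4%.

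Across the 2 groups, 5 of 10 genes were higher by TPM in both anti-A and anti-B than in their own controls (Lrat, Rdh5, Tyr, Tyrp1 and Dct), against 32.3% of the 17766 genes tested, and 0 were lower in both, against 14.8% (23.9% by CPM). For the same 5 genes both anti-miR-124 libraries lay above both NC libraries, against 20.8% of all genes. By TMM-normalized CPM these counts were 4 and 4 of 10, without Lrat, against 22.8% and 16.5%. For 0 of 10 did both anti-miR-124 libraries lie below both NC libraries, against 9.27% of all genes by TPM and 16.8% by CPM. With p-values from edgeR (quasi-likelihood) adjusted over all genes by Benjamini-Hochberg, 0 of 10 genes passed 0.05, against 0% of all genes (0 of 17766). At an unadjusted p under 0.05 there was 1 of 10, Dct, against 3.91% of all genes (2.23% counting only genes higher in the anti-miR-124 group), and DESeq2's Wald test called 0 of 10 and 36 of all genes (0.203%). Without the filter on low counts 2 of 10 passed, Ttr and Pmel, against 1.19% of 31982 genes, and the cause was not tested. With the replicate number as a block, 0 of 10 passed. The median log2 fold change of the 10 genes was 0.47, and that of all genes tested was 0.0007.

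The library with the lens transcripts was the one in which most of these genes were lowest, so the comparison was repeated without it. Without NC-A, all 10 log2 fold changes were still positive, with a median of 0.35 and a range from 0.24 (Best1) to 0.66 (Rdh5). The median of all genes tested was then 0.003. Rpe65 went from 0.87 to 0.44, Ttr from 0.59 to 0.26 and Pmel from 0.61 to 0.28. Rdh5 hardly moved, from 0.63 to 0.66, and Tyrp1 went from 0.38 to 0.48. Without anti-A, where the same genes were highest, Pmel was at 0.10 and Rpe65 at 0.37, and the median was 0.39. Leaving out either library of pair B gave larger values for the same genes. Without NC-B, Rpe65 was at 1.54, Ttr at 1.04 and Pmel at 1.05, with a median of 0.63. Without anti-B they were at 1.25, 0.84 and 0.99, with a median of 0.66, Lrat was at 0.07 and Mitf was below 0. With the lens genes left out of the table before scaling, the median was 0.48.

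The other genes of the visual cycle, from a list of 17 that includes 3 of the 10, were mostly those of other retinal cells, with small differences. Of 13 tested, 0 passed the test in either direction, 5 were higher and 1 lower in both pairs, and the median log2 fold change was 0.03. Rbp3, the retinoid carrier that photoreceptors secrete into the space between them and the epithelium, was at 1877 and 2275 TPM in pair A and 2160 and 2442 TPM in pair B. Its log2 fold change was 0.18, with a standard error of 0.04 and an adjusted p of 0.989 by edgeR. Rlbp1, the retinaldehyde-binding protein of Müller glia and pigment epithelium, was at 354 to 396 TPM (log2 fold change -0.12), and Rdh12, a photoreceptor retinol dehydrogenase, at 228 to 255 TPM (-0.10).

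Rgr and Stra6 are named after their values were seen, for an order over the libraries like that of Rpe65. Rgr, an opsin of pigment epithelium and Müller glia, had 182 and 301 counts in NC-A and anti-A and 261 and 296 in NC-B and anti-B. Stra6, the receptor through which the epithelium takes up retinol, had 122 and 198 counts in pair A and 145 and 171 in pair B. Both were lowest in NC-A and highest in anti-A, an order by TPM found for 13.7% of all genes tested. The pair A ratios were 1.68 (1.39 to 2.03) and 1.65 (1.31 to 2.08). Those of pair B were 1.08 (0.9145 to 1.285) and 1.13 (0.898 to 1.42), both intervals including 1. Others listed as pigment epithelium markers had another order. Rrh had 186 and 182 counts in NC-A and anti-A and 212 and 198 in NC-B and anti-B. In the same libraries Kcnj13 had 25, 19, 20 and 50 counts and Slc16a8 had 63, 88, 67 and 107. Slc16a8 was highest in anti-B but higher in both pairs. Its ratios were 1.42 in pair A (1.02 to 1.99) and 1.53 in pair B (1.11 to 2.10). The log2 fold change of Slc16a8 was 0.51, with a standard error of 0.22 and an adjusted p of 0.989 by edgeR.

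Of the melanosome and pigment list, 23 genes that are not among the 10 were tested. None passed in either direction, 12 were higher and 0 lower in both pairs, and the median log2 fold change was 0.06. The most abundant were Ap3d1, a subunit of the adaptor that sorts melanosome cargo (126 to 150 TPM, log2 fold change 0.09), Slc24a5, a cation exchanger (100 to 109 TPM, -0.02), and Bloc1s1, a subunit of an organelle biogenesis complex (78.8 to 97.2 TPM, -0.04). These serve other organelles or cells as well. Some pigment genes with narrower roles, chosen after their values were seen, had few counts. Slc45a2, a melanosomal transporter, had 2 counts in NC-A and 9 or 10 in the others, and Mlana had 18 counts in anti-A and 5 to 7 elsewhere. Others of the list had another order. Oca2, also a melanosomal transporter, had 22 and 17 counts in NC-A and anti-A and 27 and 38 in NC-B and anti-B. Rab38, a small GTPase of melanosome cargo transport, had 23 and 6 counts in pair A and 6 and 25 in pair B, with ratios of 0.265 (0.0883 to 0.670) and 3.98 (1.60 to 11.9).

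Of 33 genes for transport and adhesion in the epithelium, 13 were higher and 1 lower in both pairs and 0 passed the test, with a median of 0.15. Cst3, a secreted protease inhibitor made by many cells, was at 1037 to 1415 TPM (log2 fold change 0.19). Vegfa, the vascular growth factor, was at 82.5 to 121 TPM (-0.25), and Itgb5, a subunit of the integrin that binds shed outer segments, at 78.1 to 92.8 TPM (0.08). Of 15 regulators, 4 were higher and 1 lower in both pairs, 0 passed, and the median was 0.04. The most abundant were Crx (1618 to 1793 TPM), Otx2 (401 to 411 TPM) and Pax6 (212 to 237 TPM), factors of the neural retina as much as of the epithelium, with log2 fold changes of -0.004, -0.03 and -0.03. The small differences in these lists stand beside a median of 0.47 for the 10 genes, and no test compares them. Medians were larger for microglia (0.80), choroid, sclera and stroma (0.32) and ciliary body and iris (0.29). Those of melanocytes, rods, choroidal endothelium, cornea and conjunctiva, and lens were 0.01, 0.04, -0.04, -0.07 and -7.6. A positive median is thus not particular to the 10 genes.

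**Figure D4:**
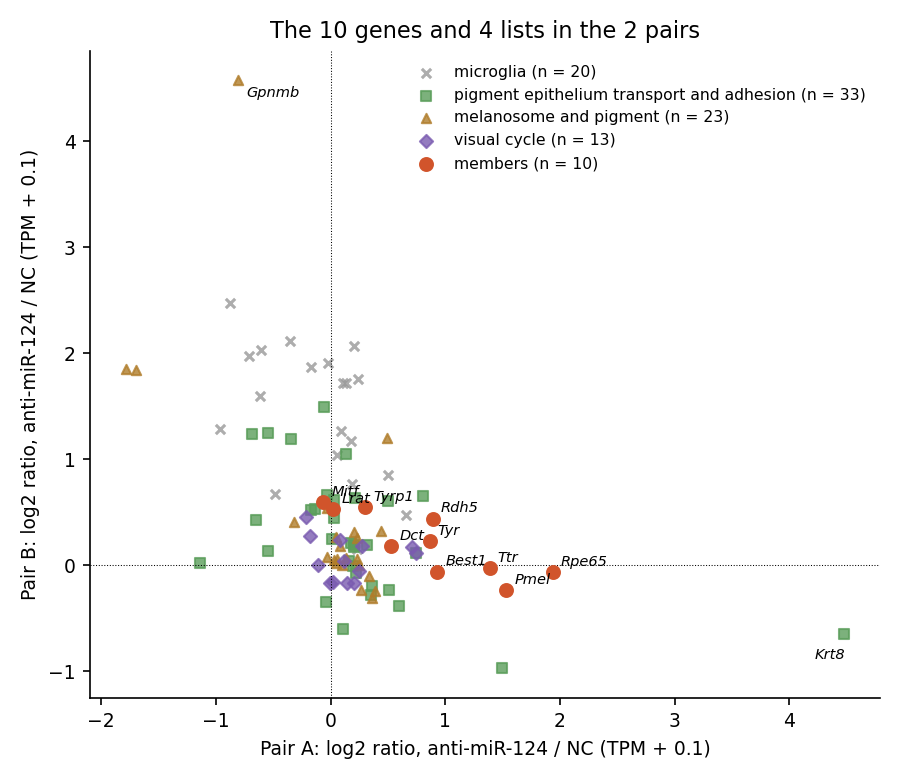
Log2 TPM ratio (anti-miR-124 over NC, 0.1 TPM added) in pair A on the horizontal and in pair B on the vertical axis for the 10 genes (members in the key) and the tested genes of 4 lists. Krt8, far right, had 0 counts in NC-A. Rpe65, Pmel and Ttr lie to the right near 0 on the vertical axis, Mitf, Lrat and Tyrp1 lie above 0, and microglia genes lie above 0 in pair B.

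Of other tissues that a dissected retina could carry, the lens had genes far higher in NC-A. Of 21 lens genes tested, 0 were higher in pair A, and Cryaa, the most abundant, was at 14712 TPM in NC-A and 44.0 TPM in anti-A. Genes of the ciliary body and iris, led by Tgfb2 (124 to 135 TPM), summed to 203 to 269 TPM. Of 14 tested, 10 were higher in pair B, with a median log2 TPM ratio of 0.72, and 3 in pair A, with a median of -0.15. Genes of the choroidal endothelium, led by Kdr, summed to 261 to 299 TPM. The stromal list was led by Igf2. Some genes of these lists, chosen after their values were seen, were also highest in NC-A. Ogn, a small proteoglycan of the stromal list, had 404 counts there and 21 to 42 in the other libraries. Cdh1 (E-cadherin), which the list for transport and adhesion in the epithelium also holds, had 81 against 31 to 35. Acta2 (smooth muscle actin) had 88 against 30 to 54. Others of the stromal list were instead highest in anti-B. Col1a1 had 220 counts there against 40 to 52, Col1a2 638 against 162 to 215 and Fmod 166 against 20 to 42. Twist2 of the stromal and Lypd3 of the corneal list had 0 counts in all 4 libraries. The list for cornea and conjunctiva summed to 226 to 248 TPM, nearly all from Pax6, which the retina expresses. Chosen after their values were seen, the surface keratins Krt5 and Krt14 had 0 to 2 counts, the corneal keratin Krt12 had 3 to 10, Krt15 had 19 to 28 and Perp, a desmosome protein, had 52 to 82 counts. The melanocyte list summed to 290 to 331 TPM, mainly from Tfap2b and Tfap2a, which amacrine cells express. The part of these tissues in the levels of the 10 genes was not tested.

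For likeness over the 4 libraries, 13541 genes with a mean of at least 50 counts were ranked by the distance of their centred log2 CPM from the mean profile of the 10 genes. The mean profile was -0.37 and 0.35 in NC-A and anti-A and -0.10 and 0.12 in NC-B and anti-B. The 10 nearest were Diaph3 (distance 0.05), ENSMUSG00000093577.1, Cav2, Adat2, Zbtb3, Gpc3, Rgr, Scd1, Nmnat3 and Faah (0.13). Rgr, at a distance of 0.12, is the only one of these that the lists for the visual cycle or pigment contain. Within the group, Tyr lay nearest to the mean profile, at 0.06, and Rpe65 farthest, at 0.82. The ranking describes 4 libraries and carries no test.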

How the data were processed

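The deposited values are whole-number read counts that the authors left unnormalized, beside the length and position of each gene. The submitters' processing notes name HISAT2 and mm9, with no version or role, and the counting tool is not given in the sources used here. Of 36837 symbols matched to RefSeq GRCm38.p6, 99.8% overlapped its position, so positions are given as GRCm38. The library kit marks strand, but whether counting used it is not stated. The 4 RPKM columns were not used. Columns were assigned to groups by the eye they name. TPM was computed as in the study's methods, with 0.1 TPM added for log2 ratios. Genes were tested with edgeR 4.0.16 (quasi-likelihood, TMM, its default filter, two-sided, R 4.3.3), checked on simulated data, and DESeq2 1.42.0 was an alternative. Python 3.11.15, pandas 2.3.3 and scipy 1.17.1 served elsewhere. The genes, lists and tests were chosen with earlier results of these data known. From 4 context lists the 3 most abundant genes outside the group were named, others as stated, with the 10 genes nearest in profile. The seed matches of miR-124-3p were not analysed here.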

Additional observations from a re-analysis of the deposited data

How the results depend on the processing

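The log2 fold changes of the 10 genes were positive in 129 of 130 alternative fits, 13 for each gene. Mitf was the exception, and ranged from -0.107 to 0.561 when 1 library was left out. All these fits reuse the same 4 libraries, and many change only the scaling, the filter or the test. The count of 129 is therefore no independent support, and no such share was computed for all genes. In pair A the log2 TPM ratio of Lrat went from 0.02 to -0.0654 without the lens genes and to -0.0772 with TMM-normalized CPM, from 21 counts in each library. The number of all genes passing was 0 as reported, 379 (of 31982) without a filter on low counts and 36 with DESeq2, and 0 to 256 when 1 library was left out (256 without anti-A, 57 without NC-B and 12 without anti-B), where the lone library of a group is assumed to vary like the other group. Without a filter 2 of the 10 genes passed, Ttr (adjusted p = 0.00271, edgeR) and Pmel (0.004), with almost unchanged log2 fold changes of 0.60 and 0.61. With the replicate number as a block, 0 genes passed (376 at an unadjusted p under 0.05, against 694) and the median of the 10 genes was 0.47. Same-numbered libraries deviated from the group means with a correlation of -0.17, and what the shared number stands for is not stated. With crossed numbers, an alternative chosen after seeing the data, 160 of 17766 genes and 2 of the 10 passed, again Ttr and Pmel. The cause of these differences in counts was not tested. The number of genes higher in both pairs cannot be given for settings that leave out a library or change only the test or the filter.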

Other observations

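A pair of genes from the pigment epithelium lists, chosen after their values were seen, had larger differences between libraries than any of the 10 genes. They were not alone in this. Otx1 of the regulators had 29 and 26 counts in NC-A and anti-A and 2 and 74 in NC-B and anti-B. Gpnmb, a transmembrane glycoprotein of melanosomes that phagocytes also make, had 257 and 144 counts in NC-A and anti-A and 179 and 4511 in NC-B and anti-B. Its TPM ratio was 0.57 in pair A (95% counting interval 0.461 to 0.701) and 24.1 in pair B (20.7 to 28.1), and its log2 fold change of 3.27 (standard error 1.26) had an adjusted p of 0.989 by edgeR. In pair B, 6 of the 10 genes were above 1, from 0.850 (Pmel) to 1.54 (Mitf), and so were all 20 microglia genes. Their part in the level of Gpnmb was not tested.

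Krt8, a keratin of simple epithelia that the pigment epithelium expresses, was also chosen after its values were seen. It had 0 counts in NC-A and 20, 23 and 15 counts in anti-A, NC-B and anti-B. The exact 95% counting interval of the ratio of anti-A to NC-A begins at 5.02. It covers counting error only, and 30.9% of 17101 genes had an interval above 1 in pair A. In pair B the ratio was 0.623 (0.302 to 1.25). The log2 fold change was 0.57, with a standard error of 1.02 and an adjusted p of 0.989 by edgeR. The cause of the 0 counts was not tested. Its usual partner Krt18 had 213 counts in NC-A and 175 to 254 in the others.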
